A study of Caenorhabditis elegans with 2 samples.

Results

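The genes described here encode the neuropeptide and insulin-like peptide precursors of Caenorhabditis elegans. They are the protein-coding genes of the Ensembl WBcel235 annotation whose names begin with flp, nlp or ins, which gave 140 of 19985 protein-coding genes. There are 31 flp genes (FMRFamide-like peptides), 71 nlp genes (neuropeptide-like proteins) and 38 ins genes (insulin-like peptides). The rule uses gene names and no measured value.

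ChIP-seq, the sequencing of DNA recovered with a chromatin protein, was used to map AMA-1 in young adult worms of strain YL503, taken whole. AMA-1 is the largest subunit of the polymerase that transcribes protein-coding genes, RNA polymerase II. The strain has the unc-119(ed3) III background and the insertion vrIs110. That insertion expresses a GFP- and FLAG-tagged AMA-1, with the AMA-1 3'UTR, from the germline promoter of pie-1, and it also holds unc-119 (+). Males and females, as the labels call them, were pooled, and the labels call the 2 samples biological replicates. They form 1 group, with no comparison between conditions and no test. The labels give ama-1 as the antibody, and do not say whether the tagged copy, the endogenous protein or both were recovered. In a whole-worm sample, fewer nuclei of a cell type and less polymerase per nucleus cannot be told apart.

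Neuropeptide precursors are cut by proprotein convertases, trimmed and amidated inside dense core vesicles, and the released peptides act mostly on G protein-coupled receptors. The insulin-like peptides act on a single insulin receptor, DAF-2, some as agonists and some as antagonists, and so set larval diapause, growth and ageing. Most flp and many nlp and ins genes are known from neurons, often from a few cells each, while others are expressed in the intestine or epidermis.

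The data are lists of peaks, each with a summit position and a signal. The signal is a value per peak set by the authors, used here only to describe and rank peaks within a list. The pooled relaxed list, which holds peaks and background, had 30000 peaks, with a median signal of 6.89 and a highest nuclear signal of 115. The relaxed list of replicate 1 had 30000 peaks and that of replicate 2 had 27106. A thresholded list, labelled optimal by the irreproducible discovery rate, had 732 peaks with signals of 27.5 and above. Read depth is unknown. A summit was assigned to a gene's start or end when it lay within 500 bp on either side, and to its body when it lay inside the gene but outside both windows.

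The labelled whole-organism source was compared with marker genes. All 13 germline markers had a pooled summit, with a median highest signal of 46.998. Of the neuron markers 15 of 18 had one, with a median of 11.3, and of the intestine markers 8 of 10, with a median of 7.09. Of the muscle markers 4 of 9 had one, and the other 5, the myosin gene myo-3 among them, had none. The share over all protein-coding genes was 51.8%. Genes of up to 1000 bp have no body outside the windows. Body summits were found at 12 of 13 germline, 12 of 18 neuron, 5 of 10 intestine and 4 of 9 muscle markers. Start summits lay at 10 of 13 germline, 6 of 18 neuron, 1 of 10 intestine and 2 of 9 muscle markers. For ends these counts were 13, 7, 3 and 1. The shares over all protein-coding genes were 28.2% in bodies, 32.0% at starts and 36.4% at ends. At starts (33.3%) and ends (38.9%) the neuron markers were thus near all genes, and in bodies (66.7%) above them. The part of this tissue makeup in the values below was not tested.

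Peptide genes carried AMA-1 summits less often than protein-coding genes at large in every relaxed list. In the pooled list 55 of 140 peptide genes (39.3%) had a summit at the start, body or end, against 51.8% of all protein-coding genes. At the start the count was 34 (24.3%, against 32.0% of all genes) and at the end it was 42 (of 140, against 36.4%). In the body it was 13 (9.29%, against 28.2%). By family, the pooled share at any place was 35.5% for flp, 40.8% for nlp and 39.5% for ins genes. The families differed by place. At the start the ins genes were near all genes (31.6%), while flp (19.4%) and nlp (22.5%) were lower. At the end the nlp genes were near all genes (35.2%), while flp (19.4%) and ins (28.9%) were lower. These shares are descriptions beside a background, with no test.

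The replicates gave like shares. In replicate 1, 58 peptide genes (41.4%) had a summit at any of the 3 places, against 56.4% of all genes. There the start held one in 33 (23.6%, against 32.1%) and the end in 40 (28.6%, against 37.1%). In replicate 2, 57 peptide genes (40.7%) had a summit at any place, against 58.6% of all genes. There the start held one in 25 (17.9%, against 30.9%) and the end in 41 (29.3%, against 35.2%). The gap at the start was thus wider in replicate 2 than in replicate 1. At the end, the ins genes taken alone were above all genes in replicate 2 (17 of 38, 44.7%) and below them in replicate 1 (23.7%).

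**Figure D1:**
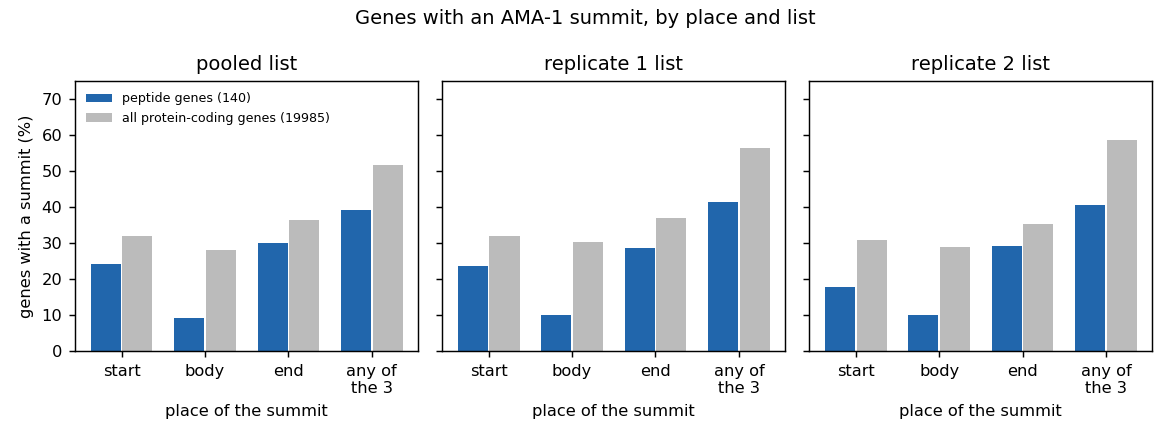
Percentage of genes (vertical axis) with an AMA-1 summit at the start, body, end or any of these places (horizontal axis), in the pooled list and in each replicate's list; blue bars are the 140 peptide genes and grey bars all 19985 protein-coding genes. The blue bar is the lower one of each pair, and the widest relative gap is in the gene body, at 9.29% against 28.2% in the pooled list.

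Peptide genes are short, which bears on the body count. Their median length was 888 bp (240 to 7245 bp), against 2026 bp for all protein-coding genes, and 76 of them (54.29%) were no longer than 1000 bp, against 18.35% of all genes. A gene of that length has no body outside the windows. Per megabase searched, peptide genes had 287 summits at starts, 174 in bodies and 372 at ends, against 394, 307 and 452 for all genes. The order of the places was therefore the same in both, ends first and bodies last.

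The signals were also lower. Among the 55 peptide genes with a pooled summit, the highest signal per gene ranged from 3.83 to 48.0 with a median of 7.42, against a median of 11.1 over the 10361 protein-coding genes with one. In replicate 1 the medians were 5.43 and 7.52, and in replicate 2 they were 4.16 and 4.89. The median over all single pooled peaks, background included, was 6.89, which is not a like measure to a median of the highest summit per gene. A highest value per gene also depends on how many summits the gene has. The 55 peptide genes gave 97 gene and summit pairs, and the 10361 genes gave 31555. By family, the pooled median was 7.29 for flp, 7.14 for nlp and 9.93 for ins genes.

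One peptide gene, ins-17, had a summit in the thresholded list (0.714% of 140), against 4.58% of all protein-coding genes. ins-17 (WBGene00002100, minus strand, chrIII:4476918-4477572) encodes an insulin-like peptide. Its peak at chrIII:4476848-4477151 had a signal of 48.0 in the pooled list, rank 162, with 35.3 in replicate 1 and 18.6 in replicate 2. The summit lay in the 3' UTR, 82 bp before the gene's end. It also lay 124 bp from the end of rps-1, a ribosomal protein gene on the opposite strand, whose highest pooled summit was this same one. Which of the 2 converging genes the signal belongs to was not tested. The start of ins-17 had a separate, lower summit of 6.99, with 6.29 in replicate 1 and none nearby in replicate 2.

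The FMRFamide-like gene flp-23 (plus strand, chrIII:8650767-8652194) had the second highest pooled signal, 23.7 at its start, with 9.82 in replicate 1 and 10.9 in replicate 2. The summit lay 310 bp before the start and 5 bp from a tRNA gene, WBGene00023002. tRNA genes are transcribed by RNA polymerase III. The part of the tRNA gene in this signal was not tested. At the end of flp-23 the pooled summits were 7.91 and 4.09, each nearer to the end of F22B7.9 than to that of flp-23.

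The bases at the summits of 5 of the genes with high signals show what lies under them. Each line gives 30 bases of the ce11 plus strand centred on the pooled summit, read from the NCBI RefSeq WBcel235 genome, with bases in annotated exons of protein-coding or small non-coding genes in capitals. The windows are chrIII:4476985-4477014 at ins-17, chrIII:8650442-8650471 at flp-23, chrIII:9489066-9489095 at nlp-36, chrII:13834922-13834951 at ins-37 and chrIV:14783277-14783306 at nlp-56.
ins-17: GAGAGTGTCAAGCTGGCGCACGGTAGAACA
flp-23: ACCATCCGGCCactgcccggctggagaaaa
nlp-36: CTGTTGTCGCTGATCACTAATCTGTTACAT
ins-37: agataacccaccgactccggacctatgcct
nlp-56: CTCCAGCTAGCGATGGTATTAAATCGAACA
At ins-17 and nlp-36 all 30 bases were exonic in the peptide gene itself. At flp-23 the 11 exonic bases belonged to the tRNA gene, and at nlp-56 all 30 belonged to the converging neighbour. At ins-37 none was exonic. GC content did not set the peptide genes' peaks apart in level, with a median of 35.5% over 96 peaks, against 35.5% over all nuclear pooled peaks.

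The high summits of nlp-36, nlp-56 and nlp-18 lay near the ends of other genes, with no share over all genes beside this. nlp-36 (chrIII:9488731-9489186) had a summit of 15.9 in its coding exon, with 19.8 in replicate 1 and none within 150 bp in replicate 2. This summit lay 95 bp from the converging end of dars-1, an aspartyl-tRNA synthetase gene, for which it was also the highest. nlp-56 (chrIV:14783324-14784737) had 14.8 just past its end, with 5.29 in replicate 1 and 7.80 in replicate 2, and the summit lay 63 bp from the converging end of a gene of the Y57G11C series. nlp-18 had 13.9 in its 3' UTR, with 14.8 in replicate 1 and none within 150 bp in replicate 2, 232 bp from the end of let-858, a conserved splicing-factor-like gene.

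nlp-12 (chrI:1843384-1843959) encodes cholecystokinin-like peptides of the DVA interneuron, which raise acetylcholine release at neuromuscular junctions. It had a summit of 21.5, with 15.96 in replicate 1 and 7.39 in replicate 2, which lay 114 bp before its start. The end of emr-1, the emerin gene upstream on the same strand, lay 43 bp away, and the summit was also the highest of emr-1. nlp-4 (chrI:10517321-10518055) had 19.3 in the pooled list and 22.04 in replicate 1, with no summit within 150 bp in replicate 2. The nlp-4 summit lay 130 bp past the end and 41 bp from the small nucleolar RNA gene F59C6.15.

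nlp-40 (chrI:11495-16837) encodes a peptide that the intestine releases to time defecation. Its end carried pooled summits of 16.4 and 12.5, lying 32 bp and 255 bp past it. The first had 8.19 in replicate 1 and nothing within 150 bp in replicate 2, and the second had 9.42 in replicate 2 and nothing within 150 bp in replicate 1. Both replicates thus had signal past the end of nlp-40, at places more than 150 bp apart. The nearest other protein-coding boundary, the end of rcor-1, lay 615 bp and 392 bp from them, and the nearest small non-coding gene lay 12960 bp and 13183 bp away.

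nlp-29, an epidermal antimicrobial peptide gene induced by fungal infection, had 7.42 in the pooled list, 55 bp before its start and 1629 bp from the end of nlp-30. Replicate 1 had 3.61 there and replicate 2 had no summit. It sits in a cluster of close paralogs on chromosome V, so its reads may be shared with neighbours and the value is uncertain. Of that cluster nlp-27 had a pooled summit of 6.26, nlp-31 one in replicate 1 alone (9.48), and nlp-28, nlp-30 and nlp-34 had none in any list.

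Among the flp genes, flp-34, whose peptides resemble the neuropeptide Y/F family, had the second highest signal. It had 15.2 in an intron, with 13.7 in replicate 1 and none within 150 bp in replicate 2, and the nearest other boundary was 2427 bp away. flp-1, which acts in locomotion, had 8.45 in a coding exon, 52 bp after the start, with 3.58 in replicate 2. The same position lies in an intron of daf-10 on the opposite strand. Replicate 1 had no summit within 150 bp of it and had one of 4.38 past the gene's end, 6 bp from the start of daf-10. The other flp genes among the highest 8 were flp-16 (7.98), flp-4 (7.32), flp-9 (7.29), flp-27 (6.97) and flp-22 (6.82), and the summits of flp-4, flp-9 and flp-22 were intronic, at least 1300 bp from another protein-coding boundary. That of flp-16 lay in a coding exon, 374 bp from the end of romo-1, and that of flp-27 lay 224 bp past its end, in an intron of C25H3.11, for which it also counted. flp-18, whose peptides act on the receptors NPR-1, NPR-4 and NPR-5 in feeding and fat storage, had no summit in any list.

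Among the other ins genes, ins-37 had pooled summits at both ends. The one past its end (15.4) had 3.73 in replicate 1 and 13.9 in replicate 2, with the nearest other protein-coding boundary 1298 bp away. The one 49 bp before its start (15.0) had 12.5 in replicate 1 and none within 150 bp in replicate 2, and lay 79 bp from the end of F08G2.7 and 35 bp from the small non-coding gene F08G2.9. ins-36 had 13.3 in a coding exon, 44 bp from the end of Y53H1A.7, and ins-10 had 11.5 in a coding exon, 23 bp from the end of vps-39. The start summit of ins-37 and those of ins-36 and ins-10 thus lay near the end of another gene, while the summit past the end of ins-37 did not. No share over all genes stands beside this.

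ins-13 had 11.6, lying 69 bp past its end and 335 bp from the end of acdh-2, with 7.61 in replicate 2. Replicate 1 had none within 150 bp of it, and had one of 7.35 elsewhere at the gene's end. A spliced leader RNA gene, sls-2.3, lay 170 bp from the pooled summit. Within 1000 bp of ins-13, but outside its windows, a thresholded summit of 54.4 lay inside another spliced leader RNA gene, sls-2.2. ins-16 had 11.1, lying 200 bp before its start and 3487 bp from any other protein-coding boundary, with 10.4 in replicate 1 and none within 150 bp in replicate 2. ins-34 had 10.7 in the 3' UTR of nkcc-1, and ins-14 and ins-15, neighbours on chromosome II, shared a summit of 9.93 that only replicate 2 matched (8.72).

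The well studied agonist ins-7 had no summit in any list. ins-18, described as an antagonist of DAF-2, had one in replicate 2 alone, of 3.36 and 52 bp past its end. The ins-18 signal lay just under the median of the replicate 2 list, 3.62.

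A smaller share of peptide genes than of all genes had summits in both replicates. The 2 shares that follow are of all genes in a group, so they also depend on how many had any summit. The part of gene length in them was not tested. Both replicates had a summit at 33 peptide genes (23.6%), against 43.4% of all protein-coding genes. Summits of the 2 replicates lay within 150 bp of each other at 8 peptide genes (5.71%), against 23.7% of all genes. These were ins-17, flp-23, nlp-12, ins-37, nlp-56, nlp-76, flp-9 and flp-16. At flp-9 the paired intronic summits were low, 3.39 in replicate 1 and 3.37 in replicate 2, and at flp-16 they were 2.87 and 2.38, past the gene's end. Of the 96 pooled peaks at peptide genes, 49 (51.0%) had a replicate 1 summit within 150 bp, 37 (38.5%) a replicate 2 summit, 11 (11.5%) both and 21 (21.9%) neither. Over all pooled peaks the shares were 57.7%, 41.0%, 19.4% and 20.8%.

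Gene by gene, 30 peptide genes (21.4%) had a summit in all 3 relaxed lists, against 39.9% of all genes. In a replicate list but not in the pooled one 32 (22.9%) had one, against 21.3%, and in the pooled list alone 5 (3.57%), against 1.44%. No list had a summit at 53 peptide genes (37.9%), against 26.9% of all genes. In replicate 1 and not in replicate 2 there were 25 peptide genes (17.9%), against 13.1% of all genes, and in replicate 2 and not in replicate 1 there were 24 (17.1%), against 15.2%. The split is given by family, with no test. Replicate 1 and not replicate 2 had a summit at 1 ins gene, while replicate 2 and not replicate 1 had one at 10. For nlp genes these numbers were 18 and 11, and for flp genes 6 and 3. The counts of ins genes with a summit were 10 in replicate 1, 19 in replicate 2 and 15 in the pooled list.

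**Figure D2:**
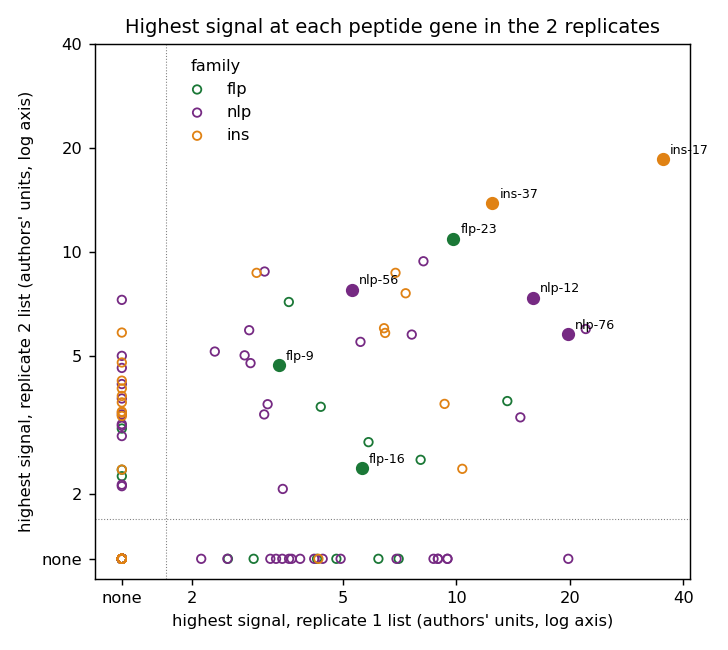
Highest signal at each of the 140 peptide genes in the list of replicate 1 (horizontal, authors' units, log axis) and replicate 2 (vertical, log axis), with genes lacking a summit placed at "none"; colours mark the families, and filled points are the 8 genes whose replicate summits lay within 150 bp of each other, though the value plotted is the gene's highest and need not be the paired one. ins-17 is alone at the upper right, at 35.3 and 18.6.

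X-linked peptide genes had few summits. Of 34 on X, 6 (17.6%) had a pooled summit, against 35.4% of X-linked protein-coding genes, and of 106 on autosomes 49 (46.2%) had one, against 54.4% of autosomal protein-coding genes. None of the 13 X-linked flp genes had a pooled summit, while 11 of the 18 autosomal flp genes (61.1%) did. In the replicates alone the X-linked flp genes had a summit in 3 of 13 cases in replicate 1 and 2 of 13 in replicate 2. The flp family has 13 of its 31 members on X, the nlp family 19 of 71 and the ins family 2 of 38.

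The 6 X-linked genes with a pooled summit were nlp-76, nlp-57, nlp-14, nlp-61, nlp-2 and ins-39. nlp-76 led them with 16.04 in its 5' UTR, 74 bp from the end of nhr-17, a nuclear hormone receptor gene upstream on the same strand with a higher summit of 36.2 elsewhere. That nlp-76 summit had 19.8 in replicate 1 and none within 150 bp in replicate 2, and its paired replicate summits (6.76 and 2.33) lay farther upstream. nlp-57 had 10.7 at its start, 987 bp from any other protein-coding boundary, with 5.42 in replicate 1 alone. The other 4 ranged from 3.83 at nlp-2 to 6.72 at nlp-14.

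**Figure D3:**
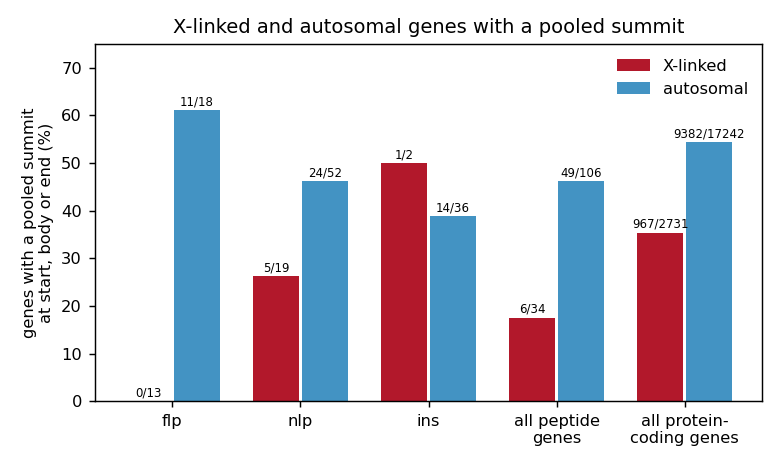
Percentage of genes with a pooled summit at the start, body or end (vertical axis) for X-linked (red) and autosomal (blue) genes of each family, of all peptide genes and of all protein-coding genes; the numbers above the bars are genes with a summit over genes in the group. The X-linked bar is the lower one except for ins, which has 2 X-linked genes, and X-linked flp genes are at 0 of 13.

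Some summits lay nearer to a neighbouring gene. The 55 genes gave 97 gene and summit pairs, and in 19 of them (19.6%) another protein-coding gene's start or end was nearer than the peptide gene's own, against 26.4% of such pairs over all genes. In 16 of the 19 the nearer boundary was an end. For 24 of the 55 genes the highest summit also counted for the nearest neighbour, 18 of them on opposite strands. Summits of 5 peptide genes, flp-23, nlp-4, ins-37, ins-13 and nlp-62, lay within 500 bp of a small non-coding gene. The counts of 16, 24, 18 and 5 have no share over all genes beside them and are not read as particular to peptide genes.

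Peptide genes have more room around them than the average gene. The median distance to another gene's boundary was 1660 bp from their starts, against 945 bp for all genes, and 952 bp from their ends, against 515 bp. Isolated starts were those with no part of another protein-coding gene within 1000 bp, and isolated ends likewise. Of 93 peptide genes with an isolated start 17 (18.3%) had a summit there, against 20.5% of such protein-coding genes. Of 59 peptide genes with an isolated end 13 had a summit there, against 24.1%. The shares of peptide genes and of all genes thus lay closer together among isolated genes than over all of them.

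**Figure D4:**
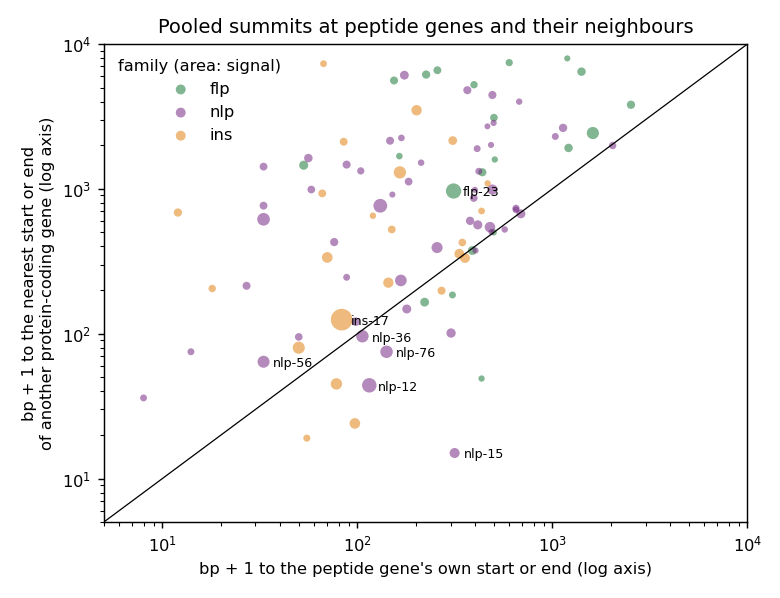
Distance of each pooled summit at a peptide gene from that gene's own start or end (horizontal, bp + 1, log axis) and from the nearest start or end of another protein-coding gene (vertical, bp + 1, log axis); area is in proportion to signal, colours mark families and the line marks equal distances. Of the 97 points, the 19 under the line are nearer to another gene, and flp-23 and ins-17 have the largest areas.

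By position, pooled summits at peptide genes lay outside the gene more often than those of genes at large. Of the 97 pairs, 49 lay outside the peptide gene, 29 in an intron, 9 in a coding exon, 7 in a 3' UTR and 3 in a 5' UTR. As shares, 50.5% lay outside, 29.9% in an intron and 19.6% in an exon of any kind, against 32.0%, 35.1% and 32.9% over all protein-coding genes, which are longer. Introns held more of the flp pairs than exons (12 against 2) and fewer of the ins pairs (2 against 7). Of those outside, 31 lay within 500 bp past the end and 18 within 500 bp before the start. For ins genes, 14 of 23 pairs lay outside, and in the pooled list and replicate 1 none of the 38 ins genes, most of which have little or no body outside the windows, had a summit there. Replicate 2 had 1, at ins-36 (6.03).

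Genes that act with these peptides are given next, with no test between lists. Of 24 genes for peptide processing and release 18 had a pooled summit. The highest were ida-1 (35.7), a dense core vesicle membrane protein that was also in the neuron marker list and had a thresholded summit, pgal-1 (20.4), the amidating lyase, and unc-108 (17.3), a RAB-2 GTPase of vesicle maturation. Yet egl-3, the proprotein convertase that cuts most neuropeptide precursors, had no pooled summit and 2.80 in replicate 1 alone. Of the 8 peptide genes named otherwise 2 had a pooled summit, daf-28 (9.23), an agonist of DAF-2, and lury-1 (5.39).

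Of 106 neuropeptide receptor genes 47 (44.3%) had a pooled summit, against 51.8% of all protein-coding genes, with a median of 7.38. By place, 13.2% had one at the start (against 32.0%), 31.1% in the body (against 28.2%) and 21.7% at the end (against 36.4%). The highest were gnrr-2 (38.8, the receptor with a thresholded summit), npr-8 (25.6) and frpr-10 (20.1). Of 19 genes of insulin signalling downstream of the peptides 16 (84.2%) had a pooled summit, with a median of 15.1. All 16 had one in the body, with 10 at the start and 14 at the end. A thresholded summit was found at 4 (21.1%), against 4.58% of all protein-coding genes. Among them were par-5 (36.9), a 14-3-3 protein, skn-1 (30.1), a stress-response transcription factor, and akt-1 (27.7), a kinase. daf-2, the receptor itself, had 10.3, with 6.01 in replicate 1 and 5.12 in replicate 2. The ins genes (15 of 38, 39.5%) thus had pooled summits less often than the genes of this signalling list. That difference was not tested, and the lists differ in gene length.

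Other gene groups are given for scale. The share over all protein-coding genes was 51.8%. Of 156 cuticle collagen genes, expressed in the epidermis, 53 (34.0%) had a pooled summit, with a median of 9.39. Of 81 cytosolic ribosomal protein genes 78 (96.3%) had one, with a median of 33.7. The highest were col-181 (61.7), col-128 (59.0) and col-54 (26.9) among the collagens and rpl-3 (106), rpl-12 (79.8) and rpl-32 (76.9) among the ribosomal proteins. The germline genes prg-1 (115), pgl-1 (88.3) and htp-1 (71.2) were the highest of the marker lists. Of the neuron markers cat-1 (41.0) was the highest, and unc-119 (26.2) is also carried by the insertion. The highest of the intestine list were vit-5 (8.77), cpr-1 (8.10) and vit-2 (7.77), and of the muscle list unc-22 (19.3), lev-11 (14.7) and act-4 (9.23).

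**Figure D5:**
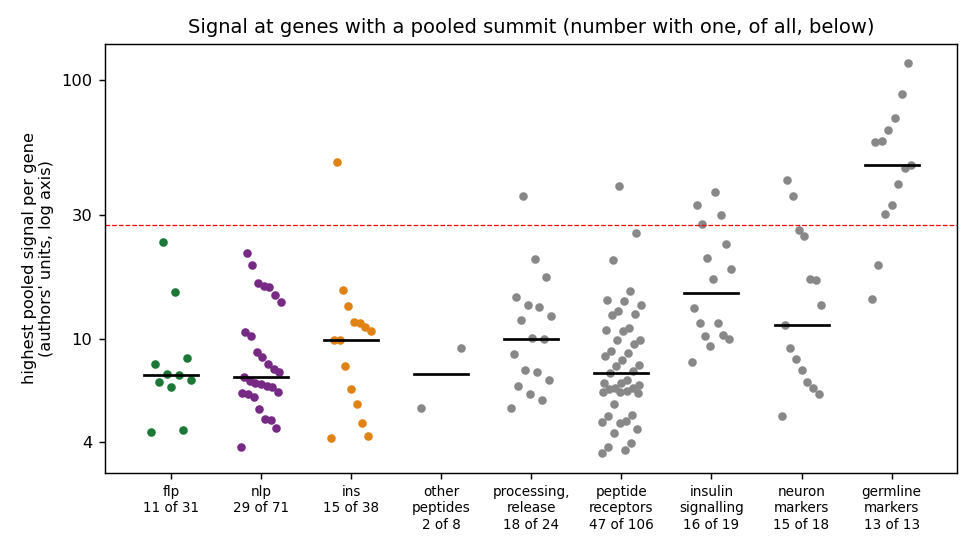
Highest pooled signal per gene (vertical, authors' units, log axis) for genes with a pooled summit in each family and each related list, with black bars at the medians and the number with a summit, of all genes in the list, under each name; the dashed line is the lowest thresholded signal, 27.5. One peptide gene, ins-17 at 48.0, lies above the line, against 11 of 13 germline markers.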

How the data were processed

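AMA-1 ChIP-seq peak lists of 2 biological replicates, labelled as 1 group, were used. Per the deposited file lists, the authors made a relaxed list (peaks and background) for each replicate and for the pooled reads, and a thresholded list by the irreproducible discovery rate. Which aligner and peak caller were used was not given in the sources used here. Column 7 of each deposited list is the authors' signal per peak, which is never compared between lists as a change. Another column is the authors' −log10 of a q-value, which was not used for any result. The deposited lists give no read counts, so no interval is given, and what the replicates share beyond their label is not stated.

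Positions are 1-based on ce11, the assembly named WBcel235 by Ensembl. All genes and peaks fell within its chromosome lengths. The lists on ce10 were not used here, since the annotation is of the other build. Summits (peak start plus the peak offset) were assigned to genes of Ensembl release 115 within 500 bp of a start or end, or to the body, in Python 3.11.15 (numpy 2.4.6, pandas 2.3.3, matplotlib 3.10.9). Replicate summits were paired within 150 bp. A summit can count for several genes. The assignment was tested on simulated peaks placed at long genes far from any other protein-coding gene. It was not tested at short or closely spaced genes, which many peptide genes are.

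Named are every peptide gene with a thresholded summit, the highest 8 by pooled signal of each family, those with paired replicate summits, the well studied ins-7, ins-18, flp-1, flp-18, nlp-12, nlp-29 and nlp-40, and the highest 3 of each related list. One gene of the insulin signalling list that this rule names is not reported here. The paralogs of nlp-29, the other X-linked genes with a summit, akt-1, daf-2, egl-3, myo-3 and nlp-62 were named after their values were seen. The members and lists were chosen with earlier results of these data known. One name of the processing list, rab-2, was not found in the annotation.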

Additional observations from a re-analysis of the deposited data

How the results depend on the processing

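Of 59 alternative values for the counts, each kept peptide genes below all protein-coding genes, and 44 stayed within 1.5 times the reported count. With windows of 250 bp the count fell to 19 at the start, to 26 at the end and to 5 for paired replicate summits, and the body count became 22. With windows of 1000 bp the body count was 7 and the thresholded count 2, ins-13 being added. With only the highest 0.5 of each list by signal, the counts were 15 at the start, 21 at the end, 5 in the body, 32 at any place, 16 in both replicates and 4 for paired summits, and the median signal was 10.7. Pairing within 300 bp, added after seeing the data, gave 18 genes. Leaving out each replicate gave 25 to 33 genes at the start, 40 to 41 at the end, 14 in the body, 57 to 58 at any place, and a median of 4.16 to 5.43, which is on each replicate's own scale. The 732 highest peaks of a single replicate held 2 peptide genes each, ins-17 and nlp-4 in replicate 1 and ins-17 and ins-37 in replicate 2. The cause of these shifts was not tested beyond what each setting removes. Depth is unknown, so a gene without a summit was not detected at the floor of a list, and signal there is not shown to be absent. No paired analysis was possible because the 2 samples form 1 group.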
